A study of Homo sapiens with 2 samples.

Results

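Solitary non-Alu clusters are places where ADAR1 was crosslinked to RNA outside Alu repeats and where no other ADAR1 cluster lay close by on the same strand. They were chosen from the authors' list by 2 of its properties, the class and the position. The cluster had to be of the non-Alu class, and no cluster of either class on the same chromosome and strand could have its nearest edge within 100 kb. This left 440 of the 3582 non-Alu clusters and of the 23782 clusters in all. They covered 81321 bases and lay on 24 chromosomes.

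The cells were U87MG, a widely used human line derived from a glioblastoma (astrocytoma). They received no treatment besides the ultraviolet light that links protein to RNA, after which RNA bound to ADAR1 was immunoprecipitated and sequenced (CLIP-seq). The 2 libraries, AB1 and AB2, are 1 each for an ADAR1 mouse monoclonal antibody. The series describes different antibodies but the labels give both libraries the same catalogue entry, and there is no control library among the samples used here. A single list of clusters stands for both libraries. It holds no tag number and no score, so the depth behind a cluster is unknown, no value has a replicate, and the antibodies cannot be compared.

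ADAR1 binds double-stranded RNA and converts adenosine to inosine in it. Most of its known substrates in human cells are pairs of Alu repeats in opposite orientation, usually in introns or in the untranslated ends of messenger RNA, that fold back on each other. Outside Alu repeats, known substrates are shorter imperfect duplexes, such as microRNA precursors or exons paired with nearby intron sequence, and ADAR1 can also touch RNA that it does not edit. The reads are stranded, so clusters from a given transcript share its strand of the genome. The clusters are given by position on build hg19, counting from 1. Genes, transcript parts and sequences at these positions were not analysed here.

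A non-Alu cluster was about as likely to stand alone at 100 kb as an Alu cluster, although at short range it was less often alone. With no same-strand cluster within 100 kb, the non-Alu share was 12.3% (440 of 3582, Wilson 95% interval 11.2 to 13.4%) and the Alu share 13.5% (2731 of 20200, 13.1 to 14.0%). Within 1 kb, 82.9% of non-Alu clusters had no such neighbour, against 95.1% of Alu clusters. Within 10 kb the shares were 51.3% and 65.4%, and within 50 kb they were 20.6% and 25.5%. From 100 kb on the intervals of the classes overlapped, with 6.50% of non-Alu and 6.58% of Alu clusters alone at 200 kb and 1.95% and 2.12% at 500 kb. At 1000 kb 27 non-Alu clusters, 0.754%, and 128 Alu clusters, 0.634%, remained alone. These shares are the measure that chose the clusters and are given as a description. The Wilson intervals here and below cover counting error only, and since clusters of a locus are not independent and the list has no replicates, no difference between groups of clusters was tested.

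**Figure D1:**
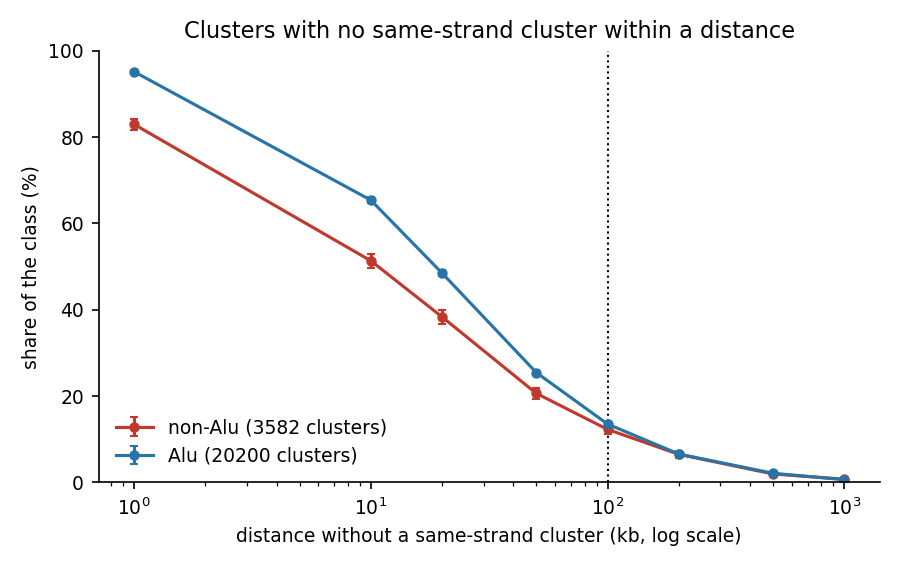
Share of non-Alu (red) and Alu (blue) clusters that have no same-strand cluster within the distance on the horizontal axis (kb, log scale). Bars are Wilson 95% intervals and the dotted line marks the 100 kb of the rule, where the shares are 12.3% and 13.5%.

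The isolation of the 440 clusters ranged from just past the threshold to almost 3 Mb. The distance to the nearest same-strand cluster had a median of 210527 bases, and the middle part of the clusters, from the first to the last quartile, lay between 139972 and 373178 bases. Of the 440, 129 had their nearest cluster at 100 to 150 kb, 78 at 150 to 200 kb, 88 at 200 to 300 kb, 75 at 300 to 500 kb, 43 at 500 to 1000 kb and 27 farther away. The 5 clusters just inside the threshold had gaps of 100369 bases (chromosome 8, minus strand, 121797395 to 121797594), 101929, 102183, 102445 and 102600 bases. The 5 non-Alu clusters that just missed it had gaps of 99694 bases (chromosome 19, minus strand, 5711211 to 5711456), 99616, 99522, 99366 and 99253 bases. The gaps run on across the threshold without a break.

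The stretch around a solitary non-Alu cluster that held no other cluster of its strand had a median of 902452 bases. This is over the 427 with a same-strand cluster on both sides. The 2731 Alu clusters that met the same distance rule are called solitary Alu clusters here. Their median stretch was close, 899165 bases over 2704 of them, and the rule bounds this measure in both groups. The empty stretch was the longer one on the upstream side, toward the 5′ end of the RNA, in 227 of 440 cases (51.6%, Wilson interval 46.9 to 56.2%). For solitary Alu clusters the share was 51.2%. For 13 of the 440 the list held no further cluster on one side up to the chromosome's end, and that side was counted as the longer.

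The most isolated clusters were spread over several chromosomes. Whether reads could be placed all along the empty stretches was not examined, so a wide gap need not mean absent binding. The farthest from any same-strand cluster lay on the plus strand of chromosome 2 from 91967942 to 91968053, 112 bases long, with 2868990 bases to the next cluster upstream and 3725368 bases downstream. The second lay on the plus strand of chromosome 1 from 104112917 to 104113151, with a gap of 2688998 bases. The third, on the plus strand of chromosome 8 from 110357992 to 110358175, had a gap of 2627006 bases. Each of these 3 had a cluster on the other strand much nearer than any on its own, at 131464, 694937 and 245603 bases.

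The other 7 of the 10 most isolated clusters had gaps between 1809352 and 2492195 bases. The only solitary non-Alu cluster of chromosome Y was among them, on the plus strand from 24491618 to 24491730, as was a cluster of chromosome X on the plus strand from 77369188 to 77369450. That of chromosome 15 on the minus strand, from 20684468 to 20684617, was also the farthest of the 440 from a cluster on either strand, at 2059857 bases. Next by that measure were minus-strand clusters of chromosome 8 (77557742 to 77557982), at 1882855 bases, and chromosome 5 (3439170 to 3439349), at 1725432 bases. In all, 5 clusters (1.14%) had none on either strand within 1000 kb, 23 (5.23%) had none within 500 kb, and 230 (52.3%) had none within 100 kb. For solitary Alu clusters the shares at these distances were 0.952%, 4.17% and 62.0%.

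Even at these distances, the nearest cluster on the same strand was more often of the non-Alu class than around Alu clusters. It was non-Alu for 96 of 440 solitary non-Alu clusters, 21.8% (Wilson interval 18.2 to 25.9%), and for 331 of 2731 solitary Alu clusters, 12.1% (10.9 to 13.4%). Over all clusters of the list the share was 14.9%, and non-Alu clusters make up 15.1% of the list. The remaining 3142 non-Alu clusters, those with a neighbour within 100 kb, had a non-Alu nearest cluster in 50.2% of cases (48.4 to 51.9%). So the share around the solitary clusters was between that of the crowded ones and that of the list, and its interval overlapped neither that of the crowded clusters nor that of the solitary Alu clusters.

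The non-Alu share among nearest clusters was highest for the less isolated members. It was 25.6% (33 of 129) at 100 to 150 kb, 23.1% (18 of 78) at 150 to 200 kb and 27.3% (24 of 88) at 200 to 300 kb. Around solitary Alu clusters at the same distances it was 10.5%, 11.7% and 12.6%. At 300 to 500 kb both groups were alike, with 14.7% (11 of 75) and 14.9%. At 500 to 1000 kb the values were 11.6% (5 of 43) and 14.6%, and beyond 1000 kb 18.5% (5 of 27, Wilson interval 8.18 to 36.7%) and 8.59%. The Wilson intervals of the groups did not overlap in the 3 classes up to 300 kb and overlapped in those beyond.

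**Figure D2:**
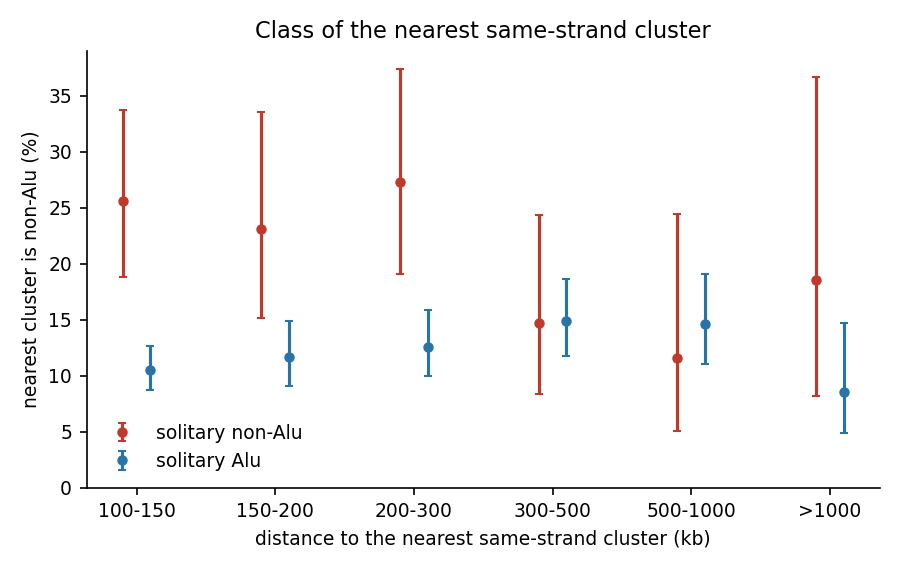
Share of clusters whose nearest same-strand cluster is non-Alu (vertical axis, %), by the distance to that cluster (horizontal axis, kb), for solitary non-Alu clusters (red) and solitary Alu clusters (blue), with Wilson 95% intervals. Up to 300 kb the red points lie between 23.1 and 27.3% and the blue ones between 10.5 and 12.6%.

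Some solitary non-Alu clusters had another solitary cluster as the nearest one on their strand. For 189 of the 440 (43.0%) the nearest same-strand cluster was itself solitary, of either class, much as for solitary Alu clusters (1150 of 2731, 42.1%). For 41 of the 440 (9.32%, Wilson interval 6.94 to 12.4%) it was a solitary non-Alu cluster. Around solitary Alu clusters a solitary non-Alu cluster was the nearest in 128 of 2731 cases, 4.69% (3.96 to 5.55%). There were 27 places where 2 or more solitary non-Alu clusters followed each other on a strand with no cluster of either class between them, and they held 59 of the 440. Such rows were not counted in the other groups, so whether they are particular to this one is unknown.

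The longest such row held 4 minus-strand clusters of chromosome 1, from 43232118 to 43850426. Its members were 212, 181, 244 and 189 bases long and lay 164380, 240847 and 212256 bases apart. Each of the 4 had a cluster on the plus strand nearer than its neighbours in the row, at 83855, 36753, 22905 and 7219 bases. Rows of 3 lay on the plus strand of chromosome 11 from 6412674 to 6630886, of chromosome 20 from 1350505 to 2126989 and of chromosome 10 from 31649855 to 32777577. The row on chromosome 11 was the tightest of the 3, with a span of 218213 bases.

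The rule leaves the opposite strand free, and there slightly fewer than 50% of the solitary non-Alu clusters had company at the same distance. An opposite-strand cluster lay within 100 kb of 210 of the 440, 47.7% (Wilson interval 43.1 to 52.4%). The share was 40.3% (38.6 to 42.1%) for the 3142 other non-Alu clusters, 38.0% (36.2 to 39.8%) for solitary Alu clusters and 36.6% (36.0 to 37.2%) for all clusters. The interval of the solitary non-Alu clusters did not overlap these. With the rule set at 50 or 200 kb instead, its interval (41.9 to 49.1% and 40.1 to 52.8%) did overlap that of the other non-Alu clusters given here. Within 10 kb the shares were 5.68% (25 of 440, 3.88 to 8.25%), 3.50% (2.91 to 4.20%) and 3.19% (2.59 to 3.91%) for solitary non-Alu, other non-Alu and solitary Alu clusters, with overlapping intervals. Over all clusters it was 2.55% (2.36 to 2.76%), below the interval of the solitary non-Alu clusters.

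The distance to the nearest opposite-strand cluster gave the same order. Its median was 111900 bases for solitary non-Alu clusters (exact 95% interval of the median 92711 to 133179), 131265 bases for other non-Alu clusters (124739 to 139652) and 166504 bases for solitary Alu clusters (153148 to 176125). The medians of the non-Alu groups have overlapping intervals, while that of the solitary Alu clusters lies above both. At long range the order was not kept. An opposite-strand cluster was found within 500 kb of 85.5% of solitary non-Alu, 87.9% of other non-Alu and 78.2% of solitary Alu clusters.

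**Figure D3:**
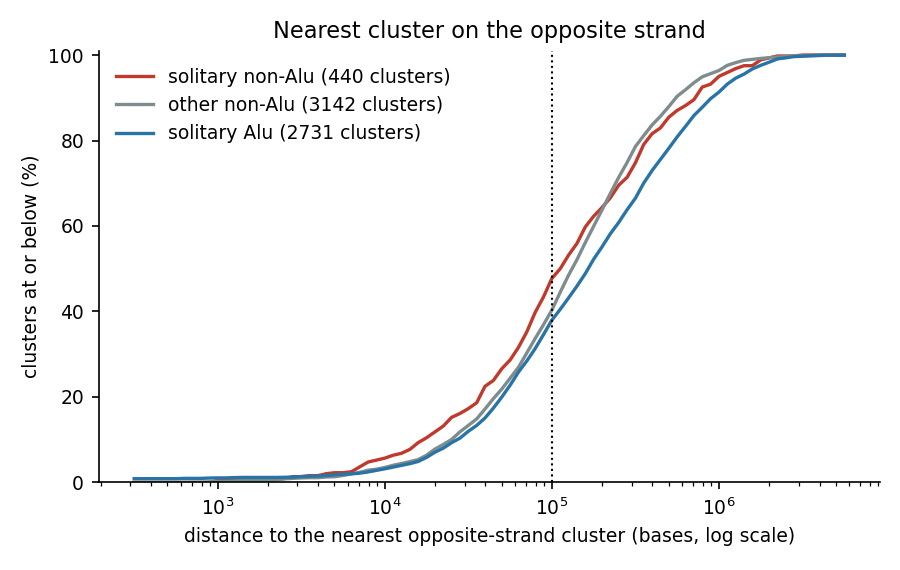
Cumulative share of clusters (vertical axis, %) by distance to the nearest opposite-strand cluster (horizontal axis, bases, log scale) for solitary non-Alu (red), other non-Alu (grey) and solitary Alu clusters (blue). At the dotted line of 100 kb the shares are 47.7, 40.3 and 38.0%.

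The wider surroundings on the opposite strand were about as full as for other non-Alu clusters. Within 1 Mb on either side, solitary non-Alu clusters had a median of 9.5 opposite-strand clusters (exact 95% interval 8 to 10), other non-Alu clusters 10 (10 to 11), solitary Alu clusters 7 (7 to 8) and all clusters 10. On their own strand the medians were 8, 15 and 8 for the first 3 groups, an order to which the rule itself contributes. The number of clusters at a place also depends on how many genes lie there and on their expression, which were not measured here.

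The opposite-strand share was also compared at equal isolation. It was 44.2% (57 of 129) at 100 to 150 kb from the nearest same-strand cluster, 57.7% (45 of 78) at 150 to 200 kb, 56.8% (50 of 88) at 200 to 300 kb and 44.0% (33 of 75) at 300 to 500 kb. It was 39.5% (17 of 43) at 500 to 1000 kb and 29.6% (8 of 27, Wilson interval 15.9 to 48.5%) beyond. In solitary Alu clusters the values were 33.8%, 43.0%, 41.9%, 43.4%, 33.6% and 27.3%. The non-Alu value was the higher one in each of the 6 classes, and in the 300 to 500 kb class by less than 1 percentage point. The Wilson intervals overlapped in 5 classes. In that of 200 to 300 kb they were narrowly apart, at 46.399 to 66.7% and 37.6 to 46.385%.

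Opposite-strand neighbours lay downstream more often than upstream. A downstream opposite-strand neighbour faces the 3′ end of the cluster's RNA, as between converging transcripts, and an upstream one faces its 5′ end, as between diverging transcripts. Of the 210 neighbours within 100 kb of a solitary non-Alu cluster, 124 were downstream and 86 upstream, 59.0% downstream (Wilson interval 52.3 to 65.5%). This was not particular to the solitary clusters, since other non-Alu clusters had 62.0% (59.3 to 64.6%). Solitary Alu clusters had 53.4% (50.3 to 56.4%).

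The opposite-strand neighbour within 100 kb was non-Alu for 59 of the 210, 28.1% (22.5 to 34.5%). The share was 23.2% (21.0 to 25.6%) around other non-Alu clusters, an overlapping interval, 15.9% (13.8 to 18.3%) around solitary Alu clusters and 17.6% (16.9 to 18.5%) around all clusters. At any distance, the nearest opposite-strand cluster was non-Alu for 21.8% of the 440, 20.6% of other non-Alu and 14.2% of solitary Alu clusters. The 59 non-Alu neighbours were downstream in 40 cases, 67.8% (55.1 to 78.3%), and the 151 Alu neighbours in 84, 55.6% (47.7 to 63.3%). These intervals overlap.

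None of the 440 overlapped a cluster on the opposite strand (0 of 440, Wilson upper limit 0.866%), and neither did any of the 3142 other non-Alu clusters. Such overlaps were found between Alu clusters only, in 23 of 2731 solitary Alu clusters (0.842%) and 118 of all 23782 clusters (0.496%). Within 1 kb, overlaps included, an opposite-strand cluster was found for 0.255% of other non-Alu, 1.06% of solitary Alu and 0.635% of all clusters. Of the 440, 2 had one (0.455%, Wilson interval 0.125 to 1.64%), and both of these members are on chromosome 15. The first, on the plus strand from 82766610 to 82766808, has a minus-strand non-Alu cluster 911 bases upstream, from 82765484 to 82765698. The second, on the minus strand from 82973060 to 82973269, has a plus-strand non-Alu cluster upstream of it, from 82974181 to 82974394, at the same distance of 911 bases. Both pairs thus diverge, with equal gaps and nearly equal lengths.

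The other 23 clusters with an opposite-strand neighbour within 10 kb had gaps of 1509 to 9883 bases. Among all 25, the neighbour was non-Alu in 12 cases, 9 of them downstream, and Alu in 13 cases, 5 of them downstream. On chromosome 17, the plus-strand cluster from 19285324 to 19285523 faces a minus-strand non-Alu cluster from 19287033 to 19287222, with 1509 bases between their edges. Also on chromosome 17, the plus-strand cluster from 26672516 to 26672605 faces one from 26674666 to 26674819 at 2060 bases. On chromosome 12, the plus-strand cluster from 7177480 to 7177732 faces one from 7187616 to 7187804 at 9883 bases.

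In 10 places 2 solitary non-Alu clusters on opposite strands were each other's nearest opposite-strand cluster within 100 kb, and in 7 of them they converged. Of all 210 opposite-strand neighbours within 100 kb of solitary non-Alu clusters, 59.0% were downstream. At any distance there were 15 such pairs, and the few farther apart than 100 kb all diverged. Such pairs were not counted in the other groups of clusters. The closest pair lay on chromosome 11, with a plus-strand cluster from 6630742 to 6630886 and a minus-strand cluster from 6638235 to 6638445, 7348 bases apart. The plus-strand member also belongs to the row of 3 on that chromosome. The next pair on the same chromosome diverged, with the minus-strand cluster from 34921208 to 34921386 and the plus-strand cluster from 34938137 to 34938329. Converging pairs followed on chromosome 21, from 45177718 on the plus strand to 45196256 on the minus strand, and on chromosome 10, from 5014786 to 5037693.

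Solitary non-Alu clusters were of ordinary length. The median was 189 bases (exact 95% interval 183 to 194), with quartiles of 144.75 and 219.25 bases, against 191 bases (189 to 193) for other non-Alu, 195 bases (193 to 198) for solitary Alu and 192 bases for all clusters. Lengths of 150 to 250 bases were found in 282 of 440, 64.1%, against 61.6% of other non-Alu, 68.0% of solitary Alu and 67.2% of all clusters. The rule did not use length.

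The longest solitary non-Alu cluster had 427 bases and the longest solitary Alu cluster 425, while the longest of the more numerous other non-Alu clusters had 1509. Over 300 bases long were 13 of 440, 2.95% (Wilson interval 1.73 to 4.99%), against 4.68% (3.99 to 5.47%) of other non-Alu and 5.75% (4.94 to 6.69%) of solitary Alu clusters. The first of these intervals overlaps both of the others, that of solitary Alu clusters only narrowly (upper limit 4.989%, lower limit 4.936%). Under 40 bases were 8 of 440, 1.82% (0.924 to 3.55%), against 0.732% (0.488 to 1.096%) of other non-Alu and 0.110% (0.0374 to 0.322%) of solitary Alu clusters. The first of these intervals lay above that of solitary Alu clusters, of which only 3 of 2731 were so short. It overlapped that of other non-Alu clusters.

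**Figure D4:**
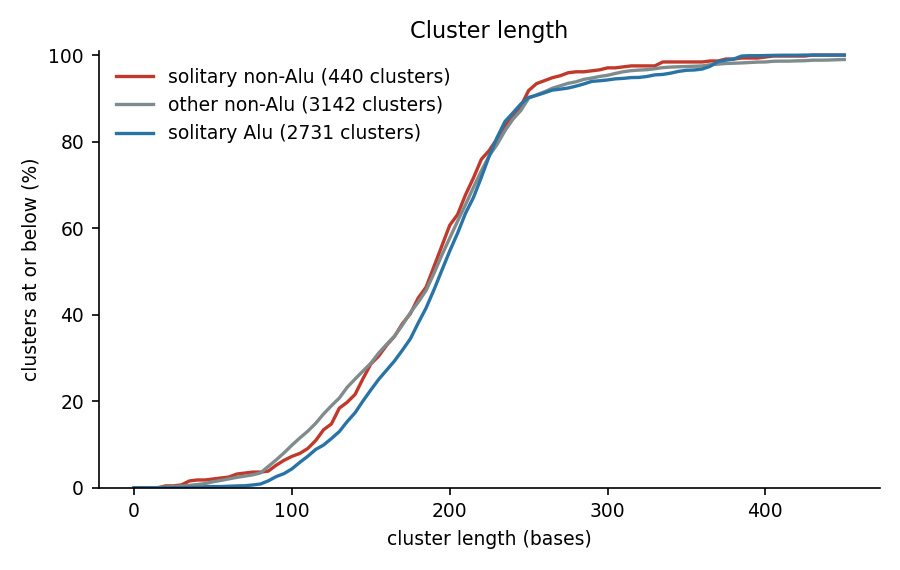
Cumulative share of clusters (vertical axis, %) by cluster length (horizontal axis, bases) for solitary non-Alu (red), other non-Alu (grey) and solitary Alu clusters (blue). The curves cross 50% at 189, 191 and 195 bases, and the clusters over 450 bases among these 3 groups, all of them other non-Alu, lie beyond the axis.

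The longest solitary cluster lay on the plus strand of chromosome 12 (117013920 to 117014346). A plus-strand cluster of chromosome 18 (43422119 to 43422521) followed with 403 bases, and the third was a minus-strand cluster of chromosome 13 (96705339 to 96705736) with 398 bases. The third is one of a diverging pair with a solitary non-Alu cluster on the plus strand from 96821803 to 96822005, 116066 bases away. The other 7 of the 10 longest had 334 to 383 bases. None of the 10 longest was among the 10 most isolated. With only 10 of 440 clusters in each set, no shared member is the likely outcome even if length and isolation are unrelated.

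The 5 shortest had 16 to 32 bases. Those of 16 bases lay on the plus strand of chromosome 6 from 32410360 to 32410375 and on the plus strand of chromosome 15 from 67485769 to 67485784. The others were minus-strand clusters of chromosome 19 (15348424 to 15348451), chromosome 16 (17197153 to 17197183) and chromosome 8 (67679776 to 67679807). Per the labels' protocols the amplified products were size-selected at 75 to 250 bases with linkers included, and whether these clusters rest on few reads was not tested, since the list has no read numbers.

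The median length was lowest at both ends of the range of isolation, but the intervals of all the classes of solitary non-Alu clusters overlapped or touched one another. It was 176 bases at 100 to 150 kb (exact 95% interval 165 to 189), 184.5 at 150 to 200 kb, 193 at 200 to 300 kb, 204 at 300 to 500 kb (189 to 214) and 198 at 500 to 1000 kb. For the 27 clusters beyond 1000 kb it was 156 bases (144 to 198). Solitary Alu clusters at the same distances had medians of 194, 192.5, 196, 200, 196 and 195 bases. In the first class the interval of the solitary non-Alu clusters lay below that of the solitary Alu clusters (190 to 198), and in the other 5 classes the intervals overlapped.

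The share of non-Alu clusters that were solitary ran from 8.79 to 18.9% over the 20 chromosomes with 10 or more solitary members. Chromosome 1 had the most, 47 of 402 non-Alu clusters (11.7%). For 21 of the 24 chromosomes the Wilson interval held the overall value of 12.3%, though these intervals are wide where clusters are few (3.62 to 62.4% on chromosome Y). The exceptions were chromosome 22, with only 3 of 98 (3.06%, 1.05 to 8.62%), chromosome 8, with 30 of 159 (18.9%, 13.5 to 25.7%), and chromosome 6, with 23 of 125 (18.4%, 12.6 to 26.1%). On chromosome 8 the solitary share of Alu clusters was 18.4%, on chromosome 6 it was 17.0% and on chromosome 22 it was 7.64%. Each of the 3 chromosomes thus stood on the same side of the whole list in both classes. The strands were near balance, with 208 plus-strand and 232 minus-strand clusters (47.3% plus, 42.7 to 51.9%).

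**Figure D5:**
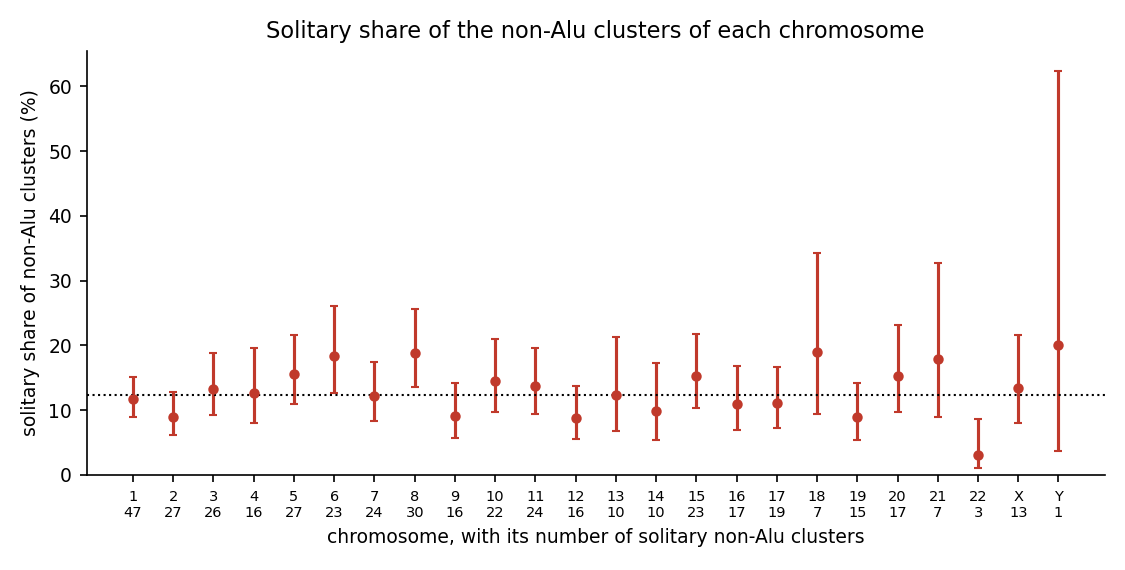
Share of each chromosome's non-Alu clusters that are solitary (vertical axis, %), with Wilson 95% intervals and the number of solitary clusters under each chromosome name. The dotted line is the value over all chromosomes, 12.3%, and chromosome 22 at 3.06% is the lowest.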

How the data were processed

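ADAR1 CLIP-seq clusters of U87MG cells were taken from the authors' deposited list, in which each cluster has hg19 positions, a strand and a class. The list has no header and names no caller, threshold or way of joining the 2 libraries, and how the Alu class was set is not given in the sources used here. Per the submitters' processing notes, cutadapt 1.1, Novoalign 2.08.22 and build hg19 were used. Reads that match several copies of a repeat can be dropped or placed at any of them, which affects the copies listed. Starts were read as counted from 0 and are printed counting from 1, which the list does not state.

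Gaps are the bases between nearest edges, tested on simulated clusters. The tools were scipy 1.17.1, pandas 2.3.3 and numpy 2.4.6 under Python 3.11.15. Shares have Wilson 95% intervals, and medians have exact binomial order-statistic intervals. No test between groups of clusters was run. No hg19 genome or annotation was used, so the planned gene, gene list, folding and sequence measures were not analysed here. The members, and all measures and lists, were chosen with earlier results of these data known. Regions named are the 10 most isolated, 10 longest, 5 shortest, 5 on each side of the threshold and those within 1 kb of an opposite-strand cluster. Rows, mutual pairs, neighbours within 10 kb and the clusters farthest from either strand were chosen after their values were seen, and so was the class of the nearest cluster as a measure. Alternatives changed the distance, the strand or class of the neighbour, the way of measuring, joining, short clusters and chromosome 1.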

Additional observations from a re-analysis of the deposited data

How the results depend on the processing

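The number of solitary non-Alu clusters follows the definition: 739 at 50 kb, 233 at 200 kb, 230 when a cluster on either strand counts as a neighbour and, when only non-Alu neighbours count, 1485, against 440. This last setting, leaving out chromosome 1 or clusters under 40 bases, and all alternatives for the class of the nearest cluster were added after looking at the data. Each of these moves follows from how the setting is built. Measuring between midpoints gave 440 and joining clusters of a class within 50 bases gave 441. The median length ran from 188 to 194 bases over its 4 alternatives and the opposite-strand share from 45.5 to 47.9% over its 4. The share with a non-Alu nearest cluster ran from 19.3 to 21.8% over its 4. All lay inside the intervals of the reported values, but these alternatives reuse many of the 440 clusters, so such closeness is partly built in. At 50 kb and at 200 kb the interval of the opposite-strand share (41.9 to 49.1% and 40.1 to 52.8%) reaches the reported one of other non-Alu clusters. No paired analysis was possible because AB1 and AB2 are merged in the list, which also prevents leaving out either. Alternatives that need genes, sequence or folding were not run. With no read numbers, weak clusters cannot be told from strong ones. A place without a cluster may only lack depth, or sequence on which reads can be placed.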

Other observations

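The chromosome 15 pairs with a gap of 911 bases, singled out after their values were seen, recur at another place that holds no solitary member. There a minus-strand non-Alu cluster from 83142068 to 83142282 is followed by a plus-strand one from 83143194 to 83143392, again 911 bases apart. The lengths are 215 and 199 bases at the first place, 210 and 214 at the second and 215 and 199 at this one, and in each the minus-strand cluster comes first along the chromosome. Among solitary non-Alu clusters with an opposite-strand neighbour within 50 kb, 1 other gap recurred in the list on the same side, 27186 bases on chromosome 10 from 53457515 to 53457577 and between Alu clusters of chromosome 15, with lengths that differ (63 and 140 bases against 155 and 172). In 15 places solitary non-Alu clusters on opposite strands were each other's nearest opposite-strand cluster at any distance. Their lengths differed by 1 to 195 bases, with a median of 36, and by at most 10 bases in 3 of the 15. These 3 lie on chromosome X (51806384 to 51806648 on the minus and 51933640 to 51933912 on the plus strand) and at both of these places of chromosome 1 (135582 to 135787 on the minus and 327568 to 327772 on the plus strand, and 222843041 to 222843258 on the minus and 222915816 to 222916038 on the plus strand).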
